A study of Mus musculus with 52 samples.

Results

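The Schlafen genes of the mouse are a family of interferon-inducible genes that sit side by side on chromosome 11. Slfn1, Slfn2, Slfn3, Slfn4, Slfn5, Slfn8 and Slfn9, which are all 7 genes described here, were chosen by name from 27525 genes measured in bulk RNA-seq of individual pancreatic tumors, and because they were chosen with their levels in the 4 treatment groups in view, those levels are given as a description and without a test. The tumors grew subcutaneously from a KPC (KxPxCx) pancreatic cell line, made with Pdx1-Cre, in male C57BL/6NHsd mice aged 8 to 10 weeks. The host mice were immunocompetent. Tumors were left untreated, or were given ADU-S100 (a cyclic dinucleotide that activates STING, 2 µg into the tumor on day 0), or anti-LTbR (clone 4H8, an antibody that activates the lymphotoxin-β receptor, 4 intraperitoneal doses of 100 µg up to day 10), or the combination of both agents. All were collected on day 14, with 8 tumors per group. The comparisons ask how each agent alone, and both together, altered the tumor transcriptome.

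A second set of 20 libraries from KxPxCx tumors carries the letters A, B, C and D, with 5 libraries per letter. Its descriptions name A as control, B as ADU-S100, C as the anti-LTbR antibody and D as the combination, whereas its treatment field reads combination for all 20. The 4 sets are therefore called by letter. The rule that named the members did not use these libraries, so tests were run here.

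Schlafen proteins share a core domain that is known for binding RNA, and several of them cleave or protect transfer RNA. The short members, Slfn1 and Slfn2, hold little more than that core. Slfn3 and Slfn4 are of intermediate length, and the long members, Slfn5, Slfn8 and Slfn9, add a C-terminal helicase-like domain. The family is known for restraint of lymphocyte and myeloid cell growth and for antiviral defence, and type I interferon raises most of its members through the interferon-stimulated response element (ISRE), the site bound by a complex that holds IRF9.

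In GENCODE annotation of the GRCm38 build, the 7 genes lie between bases 82951349 and 83215154 of chromosome 11, a span of 263806 bases, and all are protein coding. Slfn5 lies at 82951349 to 82964840 on the plus strand, and Slfn9 at 82978390 to 82991830 and Slfn8 at 83002158 to 83020810 on the minus strand. Slfn2 lies at 83065112 to 83070678, Slfn1 at 83116849 to 83122670, Slfn4 at 83175186 to 83190216 and Slfn3 at 83191330 to 83215154, all on the plus strand. Near-identical stretches can split reads between members. Of the 50-base stretches of its exons, Slfn5 shared 0% with another Schlafen gene, Slfn1 shared 0.606% and Slfn2 shared 4.27%. Slfn3 shared 7.39% and Slfn4 shared 8.15%, mostly with each other. Slfn9 shared 11.2% and Slfn8 shared 14.6%, mostly with the pseudogene Slfn10-ps, so these 4 are less certain.

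The 250 bases before each RefSeq start were searched on both strands for the letters of the ISRE, GAAA and GAAA with any 2 bases between. These were found before Slfn5, Slfn8 and Slfn9, which is all 3 long members and none of the other 4, and in 2.98% of 32851 such windows over all genes. The matched stretches are shown because they are what the long members share and the other members lack. Each runs 5′ to 3′ on the strand of its gene (RefSeq, GRCm38.p6), with the match in capitals, which is read on the opposite strand before Slfn8 and Slfn9.
Slfn5, chr11:82951927-82951976, plus strand: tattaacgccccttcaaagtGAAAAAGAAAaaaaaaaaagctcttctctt
Slfn8, chr11:83020829-83020878, minus strand: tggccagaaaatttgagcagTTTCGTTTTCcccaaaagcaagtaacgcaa
Slfn9, chr11:82991846-82991895, minus strand: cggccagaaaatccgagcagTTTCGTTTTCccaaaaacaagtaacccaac
The Slfn8 and Slfn9 stretches hold the same 10 matched letters (TTTCGTTTTC), and the match of Slfn5 runs on into further adenines. The match ended 146 bases before the RefSeq start of Slfn5, 36 bases before that of Slfn9, and 39 or 127 bases before the 2 starts of Slfn8. The Slfn5 window, 82951852 to 82952101, lies inside the GENCODE span of Slfn5 given above, so its RefSeq and GENCODE starts differ. The letters of the gamma-activated site, TTC and GAA with any 3 bases between, were found before 0 of the 7 genes and in 7.02% of all windows. The NF-κB letters, GGGA and CC with any 4 bases between, were found before Slfn9 only, and in 17.6% of all windows. A match is a description of letters and not of factor binding.

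Values are normalized counts, in which each library's reads were divided by 1 size factor. The 32 libraries of the treatment groups held 12762453 to 15591986 reads recovered from those factors, with 22202 to 23280 genes above 0. Among the lettered libraries, 19 held 16006599 to 18821792 reads and 20782 to 22730 genes above 0. Library 3 of group D stood apart, with 8716257 reads and 17066 genes above 0, and library 3 of group C had the next highest value of 1 read (1.38 normalized counts, against 3.78 in library 3 of group D). Normalized counts summed to 3.29e+07 in library 3 of group D and 2.21e+07 in library 3 of group C. The sums of the other lettered libraries ran from 1.45e+07 to 1.80e+07, so values of library 3 in these groups stand on a higher total. Values without these libraries are given beside the differences that they moved by over 1.5 times and beside the counts of calls. Markers of epithelial tumor cells, fibroblasts, macrophages and the other cell types examined were above 0 in every tumor of the treatment groups. In bulk tissue, fewer cells of a type and less RNA per cell cannot be told apart.

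Slfn2 was the most abundant member per length of exon. In untreated tumors it stood at 704 ± 165 normalized counts per kb (SD, n = 8), followed by Slfn8 at 197 ± 30.5, Slfn1 at 153 ± 44.2, Slfn9 at 149 ± 19.7 and Slfn5 at 145 ± 24.6. The last 3 of these lay within each other's spread. Slfn4 was lower, at 80.1 ± 36.3 per kb, and Slfn3 was lowest, at 6.53 ± 1.31. In combination tumors Slfn5 stood second in this order, at 252.1 ± 28.6 per kb, next to Slfn8 at 223 ± 29.7, and these ranges of mean ± SD overlapped.

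**Figure D1:**
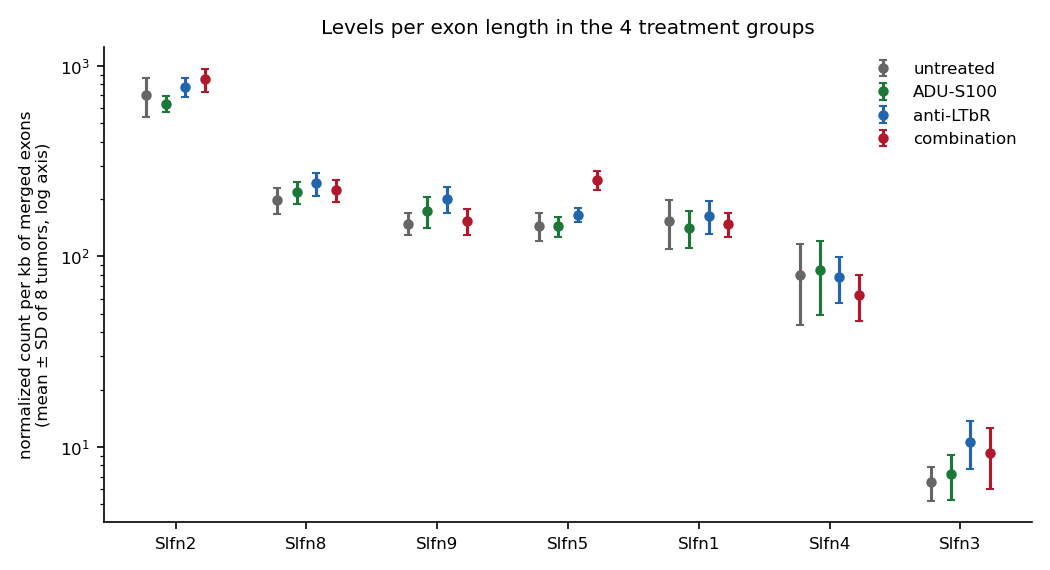
Normalized counts per kb of merged exons for the 7 Schlafen genes (log axis), as mean ± SD of 8 tumors in each treatment group. Slfn2 is highest in all 4 groups, Slfn3 is lowest, and Slfn5 stands higher in combination tumors (252.1 per kb) than in untreated tumors (145 per kb).

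Among the long members, Slfn5, a nuclear protein known for a part in the interferon response and in the motility of tumor cells, separated the combination from every other group. Its normalized count in untreated tumors ran from 668 through a median of 891 to 1158. With ADU-S100 alone it ran from 772 through 908 to 1080, and with anti-LTbR alone from 912 through 1071 to 1134. With the combination it ran from 1415 through 1586 to 1995. All 8 combination tumors thus lay above all 24 others, while the other 3 groups overlapped. The mean was 1595 ± 181 (SD, n = 8) for the combination and 1050 ± 85.4 (SD, n = 8) for anti-LTbR, a ratio of 1.52. The differences of mean log2 counts were 0.60 ± 0.07 (SE) against anti-LTbR, 0.81 ± 0.10 against untreated tumors and 0.81 ± 0.08 against ADU-S100. Groups did not overlap in this direction for 1.45% of all genes tested against anti-LTbR, 4.64% against untreated tumors and 5.00% against ADU-S100. Either agent alone left Slfn5 near the untreated level, with differences of 0.00 ± 0.10 for ADU-S100 and 0.21 ± 0.09 for anti-LTbR.

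Slfn9, another long member, had its highest level with anti-LTbR alone. It ran from 750 through a median of 882 to 1087 in untreated tumors and from 753 through 1026 to 1309 with ADU-S100. With anti-LTbR it ran from 950 through 1182 to 1492, and with the combination from 762 through 917 to 1162. In anti-LTbR tumors 6 of 8 values lay above all untreated values, and in combination tumors 4 of 8 lay below all anti-LTbR values. Mean levels, in the same order of groups and with SD over 8 tumors, were 887 ± 118, 1031 ± 188, 1195 ± 184 and 919 ± 145. On the log2 scale the combination differed from anti-LTbR by −0.38 ± 0.10 (SE) and from untreated tumors by 0.05 ± 0.10, and anti-LTbR differed from untreated tumors by 0.43 ± 0.10. Slfn5 and Slfn9 therefore stood on opposite sides of zero when the combination was set against anti-LTbR alone.

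Slfn8, the neighbour of Slfn9, held a similar order over the groups within a narrower range. It averaged 806 ± 125 without treatment, 891 ± 118 after ADU-S100, 989 ± 135 after anti-LTbR and 911 ± 121 after both agents (SD over 8 tumors). The lowest and highest values were 643 and 1050 in untreated tumors and 873 and 1257 in anti-LTbR tumors, so these groups overlapped. The log2 difference was 0.30 ± 0.09 (SE) for anti-LTbR against untreated tumors and −0.12 ± 0.09 for the combination against anti-LTbR.

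**Figure D2:**
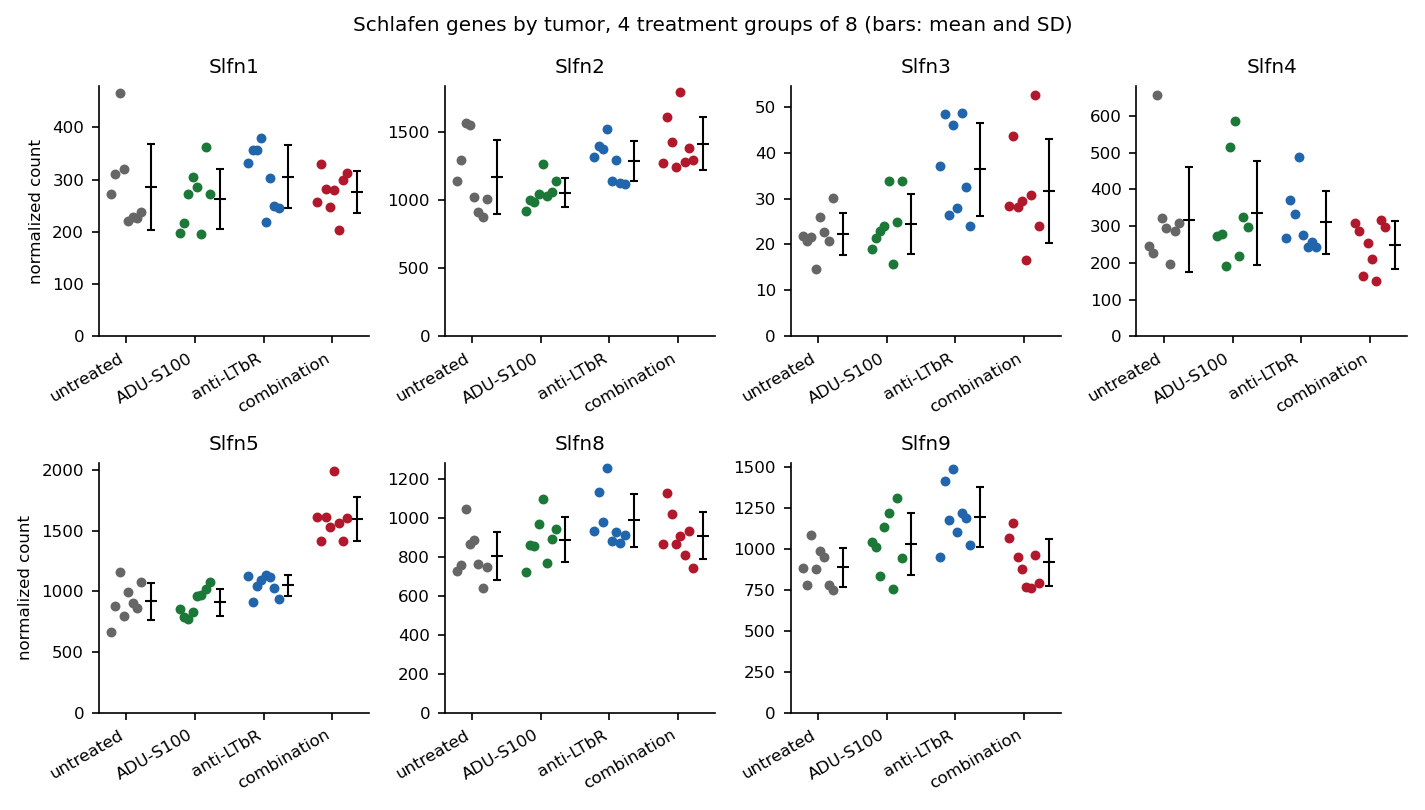
Normalized counts of the 7 Schlafen genes in each of 32 tumors, 1 point per tumor, with mean and SD of 8 tumors beside each treatment group and axes from 0. All combination tumors lie above all others for Slfn5 (lowest 1415, highest other 1158), and the groups overlap for the other 6 genes.

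Of the short members, Slfn2, which is known for keeping T cells quiescent and for protecting transfer RNA from cleavage under stress, ran from 875 through a median of 1082 to 1572 in untreated tumors. It ran from 920 through 1038 to 1264 with ADU-S100, from 1120 through 1307 to 1522 with anti-LTbR and from 1247 through 1340 to 1795 with the combination. Combination tumors lay above all ADU-S100 tumors in 7 of 8 cases and overlapped with the other groups. The log2 difference was 0.42 ± 0.08 (SE) against ADU-S100, 0.29 ± 0.12 against untreated tumors and 0.13 ± 0.08 against anti-LTbR. In the same comparison with ADU-S100, Ptprc, the pan-leukocyte marker CD45, was higher by 0.45 ± 0.10 (limma adjusted p = 0.0012). Called higher were 5 of 5 macrophage, 5 of 5 T cell, 4 of 4 NK cell, 4 of 5 B cell, 4 of 5 dendritic cell, 3 of 5 monocyte and 1 of 6 neutrophil markers, and 1 monocyte marker (Fn1, which fibroblasts also express) was called lower, where 20.2% of all genes were called higher and 26.0% lower. The summed macrophage markers ran from 13824 to 20992 with the combination and from 10289 to 13654 with ADU-S100, and their part in the Slfn2 values was not tested. Slfn1, whose overexpression is known to arrest T cell growth, had group means between 263 ± 57.8 (ADU-S100) and 305 ± 60.5 (anti-LTbR, SD, n = 8 each), and every group overlapped with every other. Its log2 differences lay between −0.13 and 0.11 in the 5 comparisons.

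Of the intermediate members, Slfn4, a gene of the myeloid lineage that is induced by interferon and Toll-like receptor signals, varied widely among tumors of 1 group. It averaged 317 ± 144 without treatment, 336 ± 141 after ADU-S100, 310 ± 84.8 after anti-LTbR and 249 ± 66.2 after both agents (SD over 8 tumors), and its coefficient of variation was 45.3% in untreated tumors, where that of Slfn3 was 20.1%, and 26.6% in combination tumors, where that of Slfn3 was 35.6%. Untreated tumor 3 was highest at 657, against 196 to 321 in the other 7 untreated tumors. No group stood apart from another. Slfn3 was low throughout, with means of 22.3 ± 4.48, 24.5 ± 6.49, 36.3 ± 10.2 and 31.7 ± 11.3 normalized counts in the same order. In anti-LTbR tumors 5 of 8 values lay above the highest untreated value of 30.2, and the log2 difference was 0.66 ± 0.18 (SE).

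Since these levels were in view when the members were chosen, their place among the genes called by limma at a false discovery rate (FDR) of 0.05 over all genes is given as a description only. For the combination against anti-LTbR these were 2 of 7, Slfn5 higher and Slfn9 lower, where 26.6% of all genes were called. Against untreated tumors it was 1 of 7 (Slfn5, 43.2% of all genes), and against ADU-S100 it was 2 of 7 (Slfn2 and Slfn5, 46.2%). For anti-LTbR against untreated tumors they were 3 of 7 (Slfn3, Slfn8 and Slfn9, 15.3%). For ADU-S100 against untreated tumors limma called 0 of 7 and 0% of 16613 genes, with 2408 genes at an unadjusted p under 0.05, while edgeR called 1 gene and DESeq2 called 52, none of them a member. The contrasts share groups, and nothing is read from the counts. No member changed by the 2 fold that the study's own call also required, which left 0 of 7 in each of these comparisons. The count for the combination against untreated tumors was 2 with edgeR, which added Slfn3, and 2 in a joint fit of the 4 groups and in the larger table, which added Slfn2. The count for anti-LTbR against untreated tumors was 2 with edgeR and 2 without the filter on low counts, which both lost Slfn8, while a replicate block left 2 and lost Slfn3.

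The term for departure from additive effects of both agents, fitted over 32 tumors, was 0.60 ± 0.13 (log2, SE) for Slfn5 and −0.58 ± 0.15 for Slfn9. Both were among the 18.4% of all genes called in this fit, which is likewise a description. For the other 5 members it ran from −0.41 ± 0.32 (Slfn4) to 0.25 ± 0.15 (Slfn2). A positive term stands for a difference with both agents above the sum of the single-agent differences, and a negative term for one below it.

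**Figure D3:**
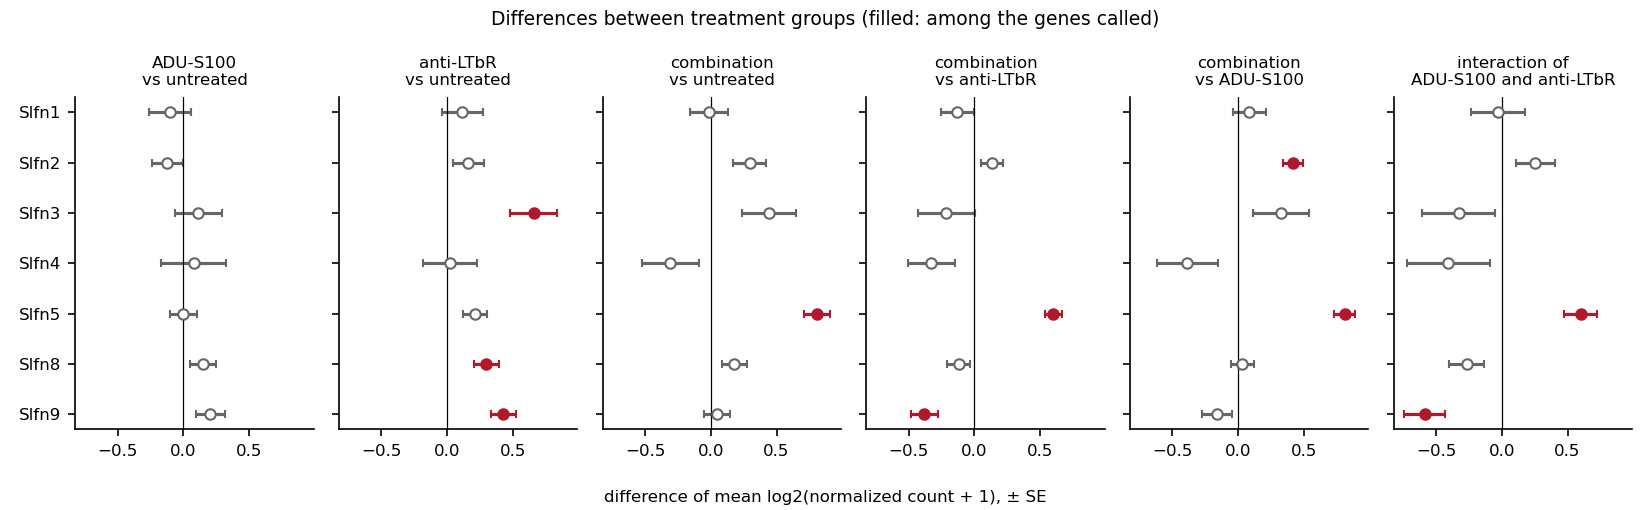
Differences of mean log2(normalized count + 1) ± SE for the 7 Schlafen genes in 5 comparisons of treatment groups and in the interaction of both agents. Filled points are among the genes called at FDR 0.05, and Slfn5 (0.60) and Slfn9 (−0.38) lie on opposite sides of 0 for the combination against anti-LTbR.

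Summed over the 7 genes, the family took 4407 ± 723 normalized counts without treatment, 4511 ± 567 after ADU-S100, 5174 ± 567 after anti-LTbR and 5397 ± 424 after both agents (SD over 8 tumors). The ranges of untreated (3691 to 6010) and combination tumors (4801 to 5986) overlapped. The sum does not show the opposite differences of Slfn5 and Slfn9 for the combination against anti-LTbR (0.60 and −0.38, log2).

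The genes whose log2 levels were most like those of each member over the 32 tumors, among 13487 others, differed by member. These correlations share libraries and group differences and are descriptive. Slfn5 was most like Dpt (r = 0.937), Col14a1 (0.936) and Fstl1 (0.931), which encode dermatopontin, collagen XIV and follistatin-like protein of the extracellular matrix. After group means were taken out, these were 0.782, 0.796 and 0.717. Slfn9 was most like Tlr3, the endosomal receptor for double-stranded RNA (0.914), Eif2ak2, the RNA-dependent kinase PKR (0.861), and A530040E14Rik (0.859). Slfn8 was most like Trim30a (0.899), Trim30d (0.882) and Herc6 (0.868), and Slfn1 was most like Irf7 (0.832), the interferon regulatory factor, Dhx58 (0.826) and Trim34a (0.813). Slfn2 was most like Sh3bgrl3 (0.868), C1qa, a complement gene of macrophages (0.858), and H2-T23 (0.846). Slfn3 was most like Rbl1 (0.772), Tlr9 (0.747) and Inpp4b (0.747), and Slfn4 was most like the mitochondrial nucleotide kinase gene Cmpk2 (0.765), Il4ra (0.720) and Oas2 (0.717). Of these 21 pairs, 19 were measured in the 20 lettered libraries, where r ran from −0.599 to 0.958 and was above 0.5 for 13. It was 0.881 for Slfn5 and Dpt and 0.958 for Slfn2 and H2-T23, but 0.339 for Slfn8 and Herc6, 0.129 for Slfn9 and A530040E14Rik, 0.0841 for Slfn4 and Cmpk2, −0.499 for Slfn4 and Il4ra and −0.599 for Slfn1 and Trim34a. Within the family, Slfn8 and Slfn9 had the highest r (0.730), followed by Slfn1 and Slfn2 (0.651), while Slfn5 and Slfn9 gave −0.122.

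The fibroblast markers moved with Slfn5. The summed level of Col1a1, Col3a1, Pdgfra and Dcn ran from 118977 to 432179 normalized counts in combination tumors. It ran from 66602 to 106501 in untreated tumors, from 52177 to 134639 after ADU-S100 and from 56656 to 124228 after anti-LTbR. All 4 markers rose in the combination against anti-LTbR, from 1.02 ± 0.17 (log2, SE) for Pdgfra to 1.58 ± 0.23 for Col1a1 (limma, adjusted p = 0.0011 and 0.00073, n = 8 each). Combination tumor 5 had both the highest fibroblast sum (432179) and the highest Slfn5 (1995). Combination tumor 2 had a fibroblast sum of 118977, below the 134639 of ADU-S100 tumor 6, while its Slfn5 was 1418 against 966 in that tumor. The 4 endothelial markers rose as well, from a summed range of 1175 to 1622 in anti-LTbR tumors to 1817 to 2578 in combination tumors, and the epithelial tumor markers had a summed range of 13111 to 16160 and 6829 to 14654. In this comparison Krt8, Krt18 and Krt19 fell (−0.53, −0.71 and −0.41, limma adjusted p = 0.0030, 0.0020 and 0.038). Epcam and Cdh1 went the other way and were not called (0.82 and 0.67, limma adjusted p = 0.060 and 0.25). The part of these cell types in the Slfn5 values was not tested.

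**Figure D4:**
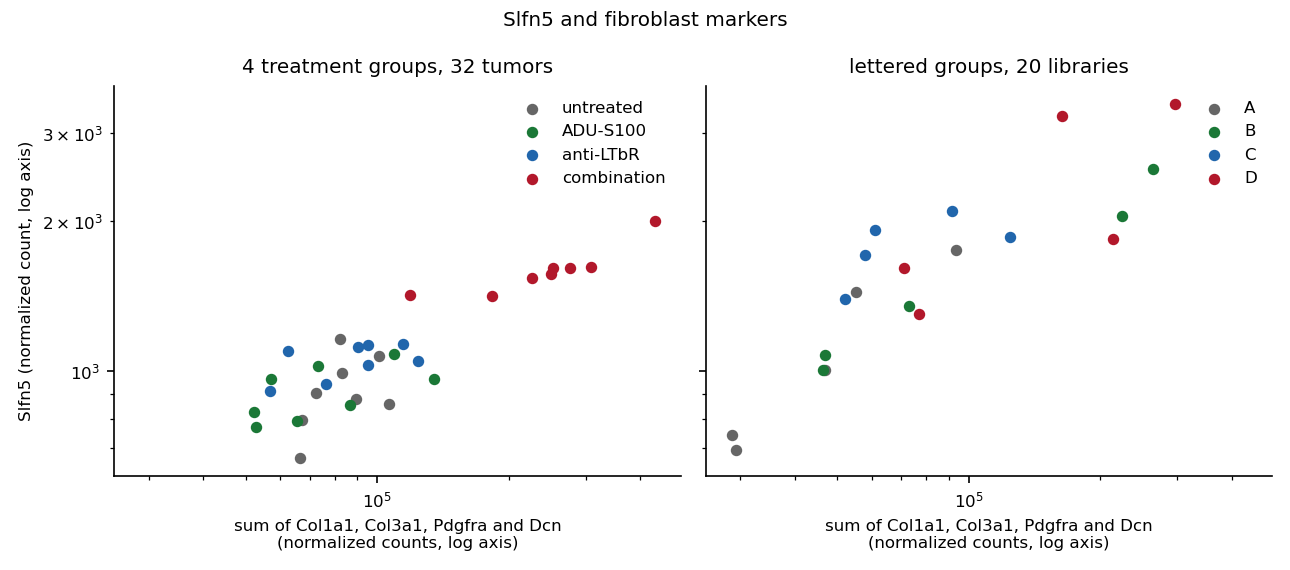
Slfn5 (normalized count, log axis) against the summed normalized counts of 4 fibroblast markers (log axis), 1 point per tumor or library, in the treatment groups (left) and the lettered groups (right). The combination tumors lie at 118977 to 432179 on the marker axis and at 1415 or above on the Slfn5 axis.

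Other genes of the interferon response were counted beside the family. Of 20 interferon-stimulated genes, 6 rose with anti-LTbR against untreated tumors and 0 fell, where 7.21% of all genes were called higher and 8.10% lower, with a median log2 difference of 0.31 against 0.00 over all genes. Among them were Ifit2, which encodes a binder of viral RNA (0.54 ± 0.12, SE), Oasl2 (0.40 ± 0.08), Zbp1, the sensor of Z-form nucleic acid (0.56 ± 0.12), and Xaf1 (0.34 ± 0.10), at limma adjusted p from 0.0067 to 0.034. For the combination against anti-LTbR, 0 of the 20 rose and 2 fell, where 11.3% of all genes were called higher and 15.3% lower, with a median of −0.22 against −0.03 over all genes. These were Xaf1 (−0.32 ± 0.09, adjusted p = 0.016) and Rtp4 (−0.22 ± 0.08, adjusted p = 0.038). The interferon receptor and its factors gave 4 of 9 higher and 0 lower with anti-LTbR against untreated tumors (7.21% and 8.10% of all genes), among them Stat2 (0.34 ± 0.06, limma adjusted p = 0.0018). For the combination against anti-LTbR, 1 of the 9 was higher and 1 lower (11.3% and 15.3% of all genes). Ifnar2 rose by 0.21 ± 0.05 (adjusted p = 0.011) and Irf9, the DNA-binding part of the ISRE complex, fell by 0.22 on the log2 scale (adjusted p = 0.010).

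Among the helicase and RNase partners of antiviral defence that are reported here, Zc3hav1, the zinc-finger antiviral protein (−0.25 ± 0.06, limma adjusted p = 0.0051), Eif2ak2 (−0.18 ± 0.06, adjusted p = 0.047) and Trim25 (−0.17 ± 0.06, adjusted p = 0.041) fell for the combination against anti-LTbR. Of 7 tested genes that flank the Schlafen cluster, 1 rose (Rffl, 0.23 ± 0.07, adjusted p = 0.030) and 1 fell (Ap2b1, −0.21 ± 0.04, adjusted p = 0.0012) in this comparison. Over all genes, 11.3% were called higher and 15.3% lower, so nothing is read from these counts. Of the other Schlafen genes, Slfn14, which encodes a ribosome-associated RNase, and 1 of the 2 genes listed as Slfn10-ps were tested and 0 were called (adjusted p = 0.45 and 0.95). The tested Slfn10-ps gene (ENSMUSG00000121398) had no position in the annotation used, and the one that lies in the cluster (ENSMUSG00000072621) and Slfnl1 were too low to test.

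The lettered libraries held the members at levels that could be tested. Slfn5 in group A was 695, 746, 1749, 1005 and 1443 normalized counts in libraries 1 to 5, and in group B 2538, 1003, 2049, 1349 and 1074. In group C it was 1393, 1914, 2092, 1858 and 1708, and in group D 1300, 1835, 3241, 3435 and 1606. Groups A and D overlapped, with 3 libraries of D above all of A. The log2 difference of D against A was 1.00 ± 0.35 (SE, 95% interval 0.23 to 1.78) and did not pass the test over all genes (limma adjusted p = 0.17). The exact permutation test of Slfn5 gave p = 0.048, or 0.21 after adjustment over 35 tests. Without library 3 of groups C and D the difference was 0.85 ± 0.33 (limma adjusted p = 0.13).

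The contrast that set Slfn5 apart among the treatment groups was not resolved between groups D and C. The difference was 0.25 ± 0.30 (log2, SE, limma adjusted p = 0.95), with a 95% interval from −0.41 to 0.92 that holds both 0 and the 0.60 of the treatment groups. It was 0.16 ± 0.27 (adjusted p = 0.79) without library 3 of both groups, and ran from 0.079 to 0.43 when 1 library at a time was left out, being lowest without library 4 of group D. Against group B it was 0.50 ± 0.36 (adjusted p = 0.52) and ran from 0.32 to 0.69 when 1 library at a time was left out. Group C stood above A by 0.75 ± 0.25 (adjusted p = 0.21). The interaction term was −0.25 ± 0.45 (adjusted p = 0.999) and ran from −0.43 without library 3 of group A to −0.061 without library 1 of group B. The fibroblast sum moved with Slfn5 here too. Libraries 1 and 3 of group B, at 264821 and 224148, held the highest Slfn5 of that group, and library 4 of group D, at 296639, held the highest of all 20, whereas the other 3 libraries of group B stood at 46306 to 72977. The part of fibroblasts in these values was not tested.

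Slfn9 kept a negative difference between groups D and C without passing the test. It was 1301, 1517, 756, 1459 and 1337 in libraries 1 to 5 of group C and 1036, 708, 1020, 888 and 987 in those of group D. All of group D lay below 4 of the 5 libraries of group C, and library 3 of group C was the exception. The difference was −0.43 ± 0.25 (log2, SE, limma adjusted p = 0.95), and without library 3 of both groups it was −0.64 ± 0.15 (adjusted p = 0.15). For C against A the difference was 0.03 ± 0.19 (adjusted p = 0.94), or 0.21 ± 0.10 without library 3 of group C (adjusted p = 0.26), beside the 0.43 of anti-LTbR against untreated tumors. For D against A the difference was −0.40 ± 0.19 (limma adjusted p = 0.25, exact permutation p = 0.032, adjusted 0.19). Slfn8 gave −0.34 ± 0.24 for D against C (adjusted p = 0.95) and −0.25 ± 0.22 for D against A (adjusted p = 0.47), which was −0.15 ± 0.17 without library 3 of groups C and D.

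Slfn2 gave the largest difference of D against A with all libraries, though not without library 3 of groups C and D. It was 2904, 2804, 27526, 2577 and 6254 in libraries 1 to 5 of group D and 1512, 1628, 2717, 1710 and 2259 in those of group A. Group C held 2300, 2835, 7992, 3705 and 2837. The highest values of groups C and D were therefore those of library 3, in which the summed macrophage markers were also highest, at 98067 and 271051, against 18518 to 36144 in the other libraries of both groups. The part of macrophages in these values was not tested. The difference of D against A was 1.43 ± 0.58 (log2, SE, limma adjusted p = 0.21) and DESeq2 called it (2.20, adjusted p = 0.015). Without library 3 of groups C and D it was 0.82 ± 0.27 (limma adjusted p = 0.080), below the 0.85 of Slfn5. The exact permutation test with all libraries gave p = 0.016, adjusted 0.19.

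Slfn1 ran alongside Slfn2 over the 20 libraries (r = 0.905). Its difference was 0.56 ± 0.33 for D against A (limma adjusted p = 0.33) and 0.61 ± 0.22 for C against A (adjusted p = 0.22). Library 3 of group D was highest, at 1764 against 486 to 750 in the other 4, and without library 3 of groups C and D the first difference was 0.25 ± 0.17 (adjusted p = 0.36). Slfn4 gave −0.16 ± 0.32 for D against A (adjusted p = 0.77), which was 0.10 without library 3 of group D. Slfn3 gave 0.14 ± 0.59 (adjusted p = 0.89), or 0.48 ± 0.51 without library 3 of groups C and D, with values of 7.55 to 38.4 in group D and 5.66 to 34.5 in group A. For B against A, Slfn3 gave 0.96 ± 0.43 (adjusted p = 0.61, exact permutation p = 0.032, adjusted 0.19), which was 0.57 without library 1 of group A.

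**Figure D5:**
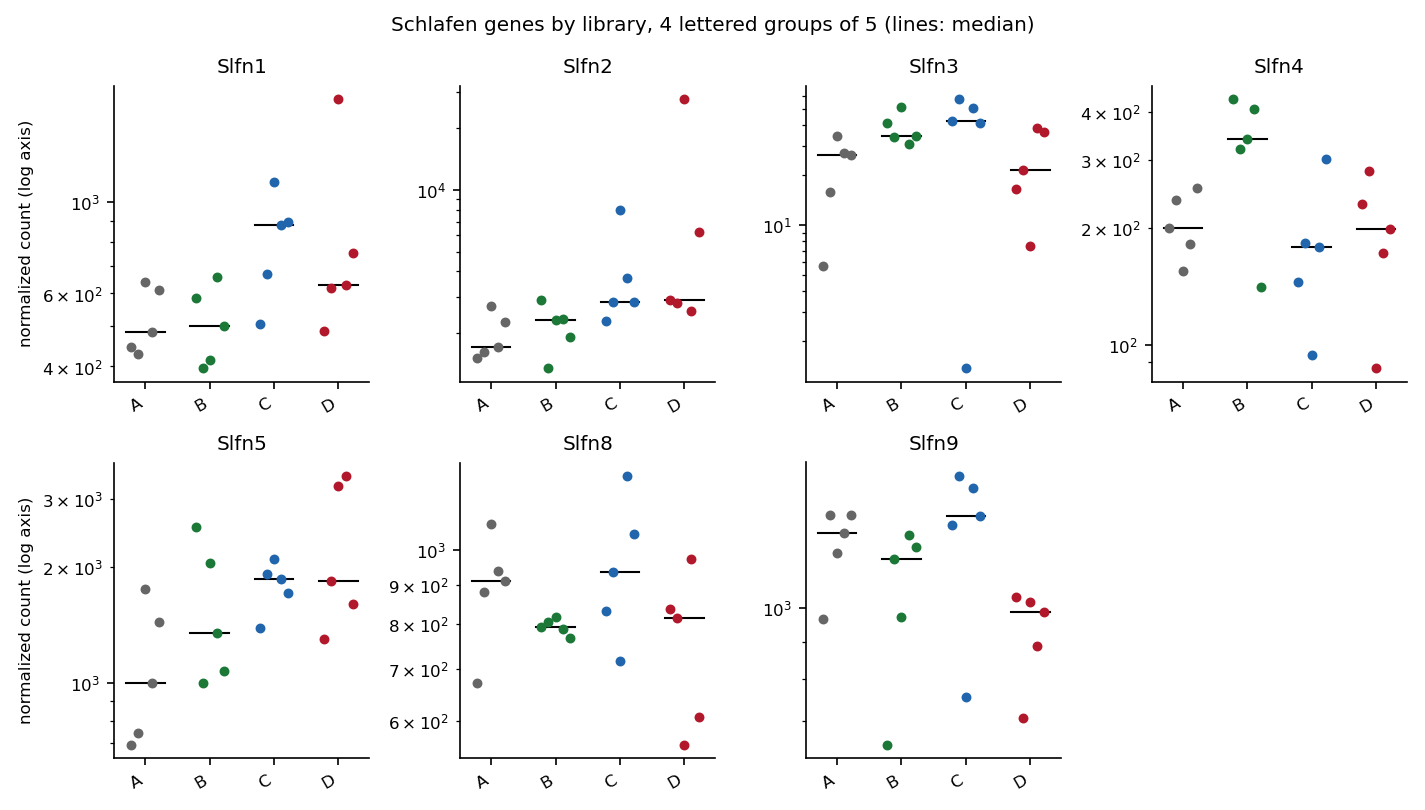
Normalized counts of the 7 Schlafen genes in 20 lettered libraries (log axes), 1 point per library, with the median of 5 libraries as a line. Library 3 of group D stands alone for Slfn2 (27526) and Slfn1 (1764), and groups A and D overlap for Slfn5.

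In all, limma called 0 of 7 members in every comparison of lettered groups. The share of all genes called was 1.05% for D against A, 0.279% for C against A and 0% for the other 3 comparisons and the interaction. At an unadjusted p under 0.05 there were 2 members for D against A (Slfn2 and Slfn5, where 20.3% of all genes had such a p), 3 for C against A (Slfn1, Slfn2 and Slfn5, 16.3%) and 1 for B against A (Slfn3, 7.38%). There were 0 for D against C (3.62%), for D against B (8.04%) and for the interaction (1.76%). Without library 3 of groups C and D there were 3 for D against A (Slfn2, Slfn5 and Slfn9, 28.7% of all genes), 4 for C against A (Slfn1, Slfn2, Slfn3 and Slfn5, 22.8%) and 2 for D against C (Slfn3 and Slfn9, 17.6%). There was then 1 for D against B (Slfn2, 10.5%) and 1 for the interaction (Slfn3, 10.5%). The other tools called 0 of 7 in each, apart from the Slfn2 call of DESeq2. Of the 35 exact permutation tests, each of which could reach 0.0079 at the lowest with 5 libraries against 5, 8 had p under 0.05 and 0 passed adjustment. Leaving out library 3 of groups C and D moved the calls over all genes from 159 to 1405 for D against A and from 42 to 351 for C against A, with 0 members among them.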

How the data were processed

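Poly(A) RNA-seq libraries of individual mouse tumors were analysed. The deposited values are a signal, namely counts that the authors divided by 1 size factor per library, in a table of 32 libraries and in a larger table of 52 libraries that also holds the 20 lettered ones. Per the labels, reads were trimmed with cutadapt 1.9 and processed with HISAT2 and StringTie, with Partek and STAR also named, on build mm39. In the study's methods, mouse reads were mapped by HISAT2 to an Ensembl release that held GRCm38, and Partek and STAR appear with a human annotation, so the sources differ on the build. Which of these made each table, and whether counting used strand, is not given in the sources used here. The antisense gene Slfn5os overlaps Slfn5, so their reads may not be told apart. The deposited gene length column, a score here, was written by the authors and not used. Reads were recovered from the step between low values, within 0.05 of a whole read, a limit that 100% of low values met. A deposited list of the authors' own enrichment results was not used. Positions are those of GENCODE release 21 for GRCm38.

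Genes passing filterByExpr of edgeR 4.0.16 (count minimum 10) were tested with limma 3.58.1 (trend) on log2(value + 1), in R 4.3.3, with Benjamini-Hochberg adjustment over all genes. Differences are on that scale, which understates those of low genes. edgeR quasi-likelihood and DESeq2 1.42.0 on the recovered reads, no filter, a pseudocount of 0.1, the 2-fold rule of the study, a joint fit, a replicate block, the larger table and leaving out libraries were alternatives. The limma script was tested on simulated data for D against A, where it found 199 of 200 genes changed by 1.5 (log2) among 15296, with 8 false calls. This checks the script and does not measure power in the lettered libraries, where Slfn2 at 1.43 ± 0.58 (SE) was not called for D against A. Exact tests were two-sided. The study describes its bulk RNA-seq tumors as individual and not pooled, with 8 per group, and speaks both of 1 experiment and of 2 independent ones that were combined, so an experiment could not be used as a batch. The labels do not say whether this covers the 5 libraries of a letter, so their p-values measure the spread between these libraries, which may be partly technical. The named genes were the 7 members, up to 5 genes of each list and the 3 most alike genes of each member with a mean of at least 50. The members and lists were chosen with earlier results of these data known. The markers Krt8 and Krt19 and the genes Stat2 and Irf7 were not analysed in the larger table. Some genes of the lists are not reported here.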

Additional observations from a re-analysis of the deposited data

Results flagged for a closer look

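In 56 sets of values (7 genes in 8 groups), 8 had a highest or lowest library that stood further from its nearest neighbour than Dixon's 95% limit allows, a test that chance passes in about 1 of 20 sets. Library 3 of group D was highest for Slfn2, at 27526 against 2577 to 6254 in the other 4, and for Slfn1, at 1764 against 486 to 750. Library 3 of group C was highest for Slfn2, at 7992 against 2300 to 3705, and lowest for Slfn3, at 1.38 against 41.5 to 57.2, and for Slfn9, at 756 against 1301 to 1517. The Slfn3 value of 1.38 is that of 1 read. Library 3 of groups C and D also had the highest totals of normalized counts among the lettered libraries. Untreated tumor 3 was highest for Slfn1, at 465.96 against 222 to 320, and for Slfn4, at 657 against 196 to 321. Combination tumor 5 was highest for Slfn5, at 1995 against 1415 to 1615.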

How the results depend on the processing

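Of 162 counts of members called under an alternative, 153 were within 1.5 times the main count. Many of these set 0 against 0, since limma called 0 members in every lettered comparison, so their agreement says little. Of 322 differences of single members in the treatment groups, 301 kept both their direction and their call, 13 lost a call (10 of them to the 2-fold rule), 3 gained one, and 5 changed sign, each a small difference that was not called (Slfn4 for anti-LTbR against untreated tumors was 0.02 with limma and −0.043 with edgeR and DESeq2). Of 502 in the lettered groups, 480 kept both, 21 changed sign and 1 gained a call. With the 2-fold rule added, 0 members were called in each comparison of the treatment groups and in the interaction, as none changed by 2 fold. The count for the combination against untreated tumors, 1 in the main analysis, was 2 with edgeR, 2 in the joint fit and 2 in the larger table. For D against A, DESeq2 called 1 member (Slfn2). The difference of Slfn1 between D and C was 0.074 with edgeR and 0.12 with DESeq2, against −0.05 with limma. Leaving out 1 library at a time turned the sign of some values that did not pass the test. The Slfn2 difference for D against C, 0.54 ± 0.63 (log2, SE) with all libraries, was among them. For D against A these ranged from −0.25 to 0.48 (Slfn3) and from −0.32 to 0.10 (Slfn4), the latter also without library 3 of groups C and D, an alternative chosen after the data were seen. For D against C they ranged from −0.35 to 0.11 (Slfn1), −0.061 to 0.84 (Slfn2), −1.15 to 0.058 (Slfn3) and −0.10 to 0.37 (Slfn4), and for C against A from −0.016 to 0.18 (Slfn8) and −0.051 to 0.21 (Slfn9). The same alternatives called 0 members. The causes were not tested. Replicate numbers were not used as pairs in the main fits. In no comparison were all pairs of same-numbered libraries correlated above 0.1 (the lowest r was −0.53 in the treatment groups and −0.50 in the lettered groups). At most 2 pairs of 8 and 1 of 5 correlated best with their own number. Mean r was higher for same than for other numbers in some comparisons (D against C, 0.28 and −0.019) and lower in others (D against B, −0.18 and 0.050). Pairing by number was therefore not settled. With the number as a replicate block, 2 members were called for the combination against anti-LTbR, 1 against untreated tumors and 2 against ADU-S100, 2 for anti-LTbR against untreated tumors (3 without it), and 0 in each lettered comparison. Over all genes the block moved the calls from 159 to 41 for D against A and from 42 to 4 for C against A. The 5 libraries of each letter, the lower depth of library 3 of group D and the unlike labels of the letters limit the lettered comparisons, and low counts limit Slfn3.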
